A study of Mus musculus with 4 samples.

Results

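Opposite-strand genes are long non-coding RNA (lncRNA) genes that mouse nomenclature names after a neighbour on the other strand, by adding "os" and sometimes a number to the neighbour's symbol. They were selected by name alone from the gene annotation of a study of RNA polymerase I (Pol I). A symbol counted when it equalled another symbol of the annotation followed by "os" and at most 1 digit, had a row on an assembled chromosome and had no coding part. This gave 180 os genes among 26161 gene symbols, with 218 transcript rows between them. The gene that lends its name is called the partner here, and the 180 os genes had 169 partners.

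The study ran CUT&Tag, in which an antibody leads a transposase to the chromatin that a protein occupies, with an antibody to Pol I in C64 mouse embryonic stem cells. Its 4 libraries were 2 untreated controls and 2 from cells exposed to auxin at 500 nM for 6 h. The labels name no allele or degron-tagged protein for either group, and they do not say whether replicates were separate cultures. The values described here are mm10 coordinates, which belong to no library and have no replicate error. Pol I signal over these genes was not analysed here, no control and auxin values are compared, and the depth of the libraries is unknown.

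A gene pair on opposite strands can be arranged in several ways. In a divergent (head-to-head) pair the 5' ends lie next to each other and transcription runs outwards, so that both RNAs can start from one stretch of promoter DNA. In a convergent (tail-to-tail) pair the 3' ends face each other, and in a nested pair one gene lies inside the other. Antisense lncRNAs are known next to many genes that pattern the embryo, among them homeobox genes, and some of them act on the neighbouring gene while others have no known role. Where exons of both genes cover the same bases, reads that carry no strand cannot be given to one of the genes from position alone.

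The name held up against the coordinates. All 180 os genes lay on the chromosome of their partner, 180 were on the opposite strand and 0 were on the same strand. The RefSeq gene table classed 173 as lncRNA, 5 as antisense RNA and 2, Speer4cos and Fbxl12os, as transcribed pseudogenes, and all 180 carried a curated non-coding transcript accession. All but 1 of the 169 partners had a coding part in the annotation. The exception was Ctrc, the partner of Ctrcos, which had no coding part in its row and which RefSeq lists as a transcribed pseudogene. A total of 44 os genes carried a digit, and 11 partners had 2 os genes each, namely Bcas3, Dlx6, Grip1, Kcnmb4, Lrp8, Pcsk2, Pitpnm2, Ptgs2, Rab11fip4, Rsf1 and Tbx3.

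Nesting inside the partner was the most frequent arrangement, and head-to-head arrangements together were more frequent still. A total of 59 os genes (32.8%) lay wholly inside their partner. Another 43 (23.9%) were divergent without a shared base, and 43 overlapped the partner only at the 5' ends, so that 86 of 180 (47.8%) faced the partner with their 5' ends. The starts lay within 1000 bases in 32 of the divergent pairs and in 24 of those with overlapping 5' ends. The 3' ends overlapped in 18 pairs (10.0%), 10 pairs were convergent without a shared base, and in 7 pairs the os gene enclosed the whole partner. In all, 127 os genes (70.6%) shared at least 1 base of span with the partner and 53 shared none.

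**Figure D1:**
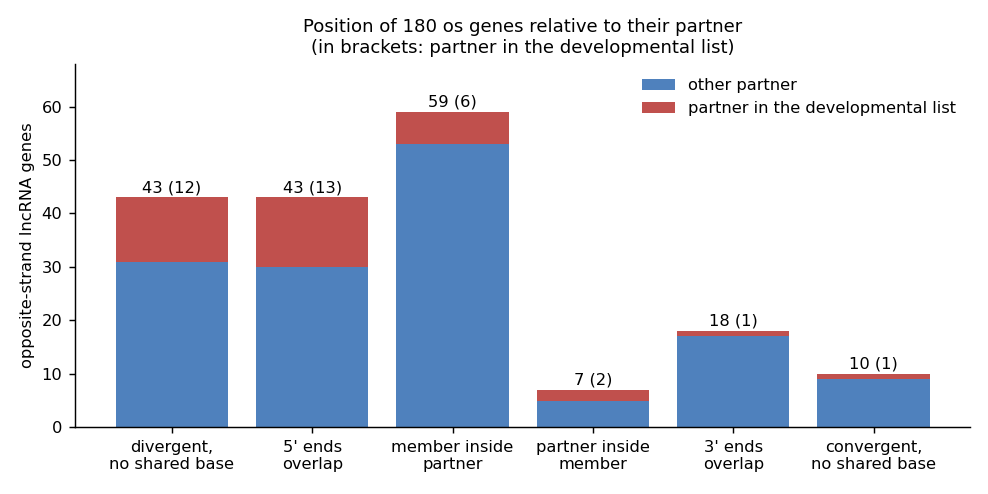
Number of os genes (bar height) in each arrangement relative to the partner, with partners in the list of developmental families in red and all others in blue. The bars read 43, 43, 59, 7, 18 and 10 genes, and the red parts, given in brackets, 12, 13, 6, 2, 1 and 1.

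The distance between the 5' ends spanned 3 to 600534 bases. It was at most 1000 bases in 56 os genes (31.1%), at most 300 bases in 32 and at most 5000 bases in 83. Within 300 bases, 28 os genes started upstream of the partner and shared no base with it, and 4 started inside it. From there up to 1000 bases the order was the other way, with 4 upstream and 20 inside the partner. Divergent pairs without a shared base had a median distance of 187 bases, and pairs with overlapping 5' ends one of 825 bases.

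**Figure D2:**
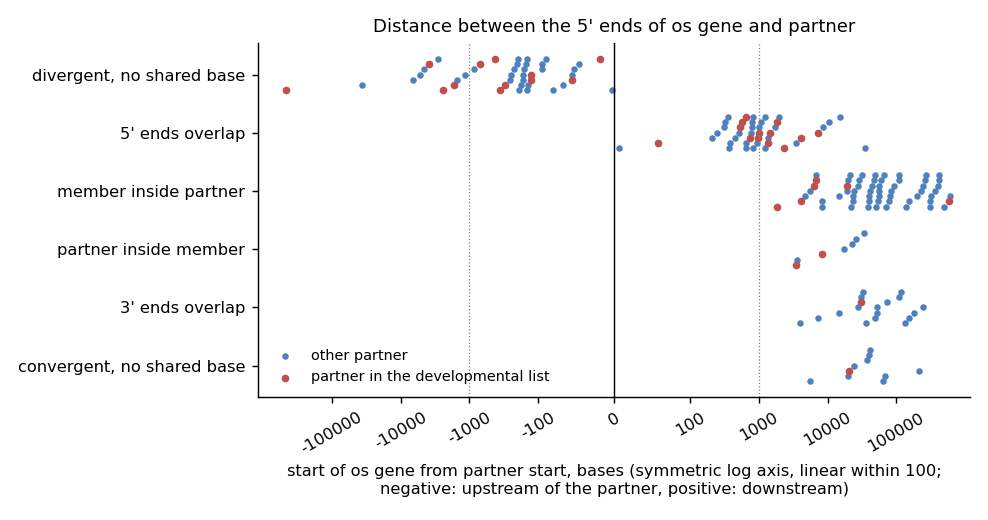
Position of each os gene's 5' end relative to its partner's 5' end, in bases on a symmetric log axis that is linear within 100 bases, 1 point per gene and 1 row per arrangement; dotted lines mark 1000 bases on either side. Most divergent genes sit within 300 bases upstream, genes with overlapping 5' ends lie inside the partner with a median of 825 bases, and nested genes reach 600534 bases.

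The closest head-to-head starts can be read directly as sequence, since a single short stretch holds both 5' ends. The stretches below were taken from RefSeq promoter windows (GRCm38.p6) and are printed on the partner's strand. Capitals mark the bases between the starts (for Tmem51os1, the bases that both transcripts share). The os gene runs to the left and the partner to the right. Except in the Tmem51 pair, each lower-case end holds the first bases of a transcript. In the Tmem51 pair the 5' ends overlap, so the capitals hold the first bases of both transcripts and the lower-case ends lie outside the shared part. Shown are the 6 pairs with the closest starts outside a list of developmental families (homeobox genes, other transcription factors and signalling genes), together with the 4 closest divergent pairs inside that list. The stretches are Dgkeos (chr11:89060738-89060761, minus strand), Tmem51os1 (chr4:142084288-142084314, minus strand), Wt1os (chr2:105126500-105126539, plus strand), Emx2os (chr19:59458625-59458700, plus strand), Appbp2os (chr11:85235110-85235176, minus strand), Fam120aos (chr13:48968050-48968122, minus strand), Mkln1os (chr6:31398763-31398838, plus strand), Med9os (chr11:59948137-59948224, plus strand), Hand2os1 (chr8:57320849-57320993, plus strand) and Lhx1os (chr11:84525524-84525670, minus strand).
Dgkeos and Dgke: gcgtgcggactGCgcaggtgcgct
Tmem51os1 and Tmem51: gcctggtggcGTAGGGCgcagggtggg
Wt1os and Wt1: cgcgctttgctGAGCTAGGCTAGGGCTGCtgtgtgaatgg
Emx2os and Emx2: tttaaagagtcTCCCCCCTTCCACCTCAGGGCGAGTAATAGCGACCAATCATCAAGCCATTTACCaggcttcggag
Appbp2os and Appbp2: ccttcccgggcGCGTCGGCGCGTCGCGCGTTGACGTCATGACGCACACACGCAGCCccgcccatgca
Fam120aos and Fam120a: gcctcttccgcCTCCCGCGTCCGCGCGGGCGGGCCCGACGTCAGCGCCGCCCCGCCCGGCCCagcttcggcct
Mkln1os and Mkln1: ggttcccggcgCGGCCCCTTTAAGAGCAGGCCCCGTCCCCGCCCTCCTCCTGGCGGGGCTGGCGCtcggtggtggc
Med9os and Med9: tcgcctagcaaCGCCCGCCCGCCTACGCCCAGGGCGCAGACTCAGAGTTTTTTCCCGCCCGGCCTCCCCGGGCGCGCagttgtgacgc
Hand2os1 and Hand2: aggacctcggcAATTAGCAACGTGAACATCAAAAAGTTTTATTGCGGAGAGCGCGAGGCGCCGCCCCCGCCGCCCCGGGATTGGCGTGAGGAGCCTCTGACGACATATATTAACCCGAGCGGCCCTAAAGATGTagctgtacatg
Lhx1os and Lhx1: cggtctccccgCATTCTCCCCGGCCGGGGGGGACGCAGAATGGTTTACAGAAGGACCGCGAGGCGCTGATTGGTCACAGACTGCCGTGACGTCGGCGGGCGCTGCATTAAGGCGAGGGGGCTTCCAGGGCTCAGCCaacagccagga

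The space between the starts was 2 bases in the pair of Dgke, a diacylglycerol kinase, and 18 bases in the pair of Wt1, a zinc finger factor of kidney and gonad development. Emx2, a homeobox gene of the forebrain and the urogenital system, and Mkln1, which encodes muskelin, each had 54 bases between the starts. These equal spaces differed in composition, with 2 CpG dinucleotides and 53.7% G+C in the Emx2 pair against 5 and 77.8% in the Mkln1 pair. Hand2, a basic helix-loop-helix factor of heart and limb, had 123 bases with 13 CpG dinucleotides, and Lhx1, a LIM homeobox gene of head and kidney, had 125 bases with 12. The letters CCAAT, or ATTGG on the other strand, occurred between the starts in the Emx2, Hand2 and Lhx1 pairs. In all RefSeq windows, the same number of bases before the start held them in 9.52%, 21.6% and 21.9% of cases. The letters GGGCGG, on either strand, occurred between the starts in the Fam120a, Mkln1, Med9 and Hand2 pairs, against 16.4%, 17.2%, 19.8% and 26.7% of all windows over the same lengths. The Appbp2 pair had 45 bases between the starts, with 10 CpG dinucleotides and neither motif, and the Fam120a pair had 51 bases with 12 CpG dinucleotides and 90.2% G+C. Med9, which encodes a subunit of the Mediator complex, had 66 bases and 10 CpG dinucleotides between the starts. The Tmem51 pair was the closest overlapping one, with 7 shared bases.

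Homeobox genes, which encode DNA-binding proteins that set position and cell identity in the embryo, were the partners of 19 os genes. The list of developmental families used here holds homeobox genes, other transcription factors and signalling genes, and each was matched by symbol. It contained 33 of the 169 partners (19.5%) and 713 of 20996 coding symbols with 1 locus (3.40%). By class these were 18 partners (10.7%) against 198 coding symbols (0.943%) for homeobox genes, 12 (7.10%) against 314 (1.50%) for other transcription factors, and 3 (1.78%) against 201 (0.957%) for signalling genes. The shares were not tested against each other. Some transcription factors among the partners, such as Sp3, Hnf4a and Bach2, are outside the list and count as other partners.

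Divergent pairs and pairs with overlapping 5' ends, at any distance, made up more of the developmental pairs than of the rest. Of 35 os genes with a developmental partner, 25 (71.4%) were divergent or overlapped at the 5' ends, against 61 of 145 (42.1%) with another partner. Nesting inside the partner was seen in 6 (17.1%) against 53 (36.6%). The median distance between 5' ends was 1644 bases in developmental pairs and 19938 bases in the others. The distance was at most 1000 bases in 14 of 35 (40.0%) against 42 of 145 (29.0%). With a limit of 5000 bases the counts were 26 of 35 (74.3%) against 57 of 145 (39.3%). The partners also differed in length, with a median span of 9968 bases in the developmental pairs against 41383 bases. The part of partner length in the difference was not tested, and no test of the shares was made.

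Among homeobox partners, 8 os genes overlapped the 5' end. Hoxa11os, named after a Hox gene of limb and uterus, began 567 bases inside Hoxa11 (chr6:52245243-52249769, plus strand, 5 exons), and all 568 shared bases were exonic in both genes, 477 of them coding in Hoxa11. Prox1os (531 bases inside Prox1, a regulator of lymphatic and lens development) shared 133 exon bases, none of them coding. With the row listed first for each gene, the Prox1 pair was divergent without a shared base. Dlx4os (748 bases inside) shared 79 exon bases and Evx1os (1334 bases) 73. Nkx2-2os and Pax6os1 reached far from their partners, which are both needed for neural tube and pancreas development. Nkx2-2os began 2319 bases inside Nkx2-2 and spanned 147599 bases, the longest span of all 180 os genes, while Nkx2-2 itself shared 2320 bases with it. Pax6os1 began 1434 bases inside Pax6, spanned 134251 bases with 4 exons, and shared no exon base with it. Vax2os (962 bases inside, 6 exons) and Hoxd3os1 (4137 bases inside, 3 exons) shared no exon base with their partners either.

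The divergent homeobox pairs were 4, and their distances ranged widely. Beside Emx2os (55 bases) and Lhx1os (126 bases), Otx2os1 began 1644 bases upstream of Otx2, a head and eye regulator, and spanned 124061 bases with 743 exon bases. Six3os1 began 2438 bases upstream of Six3, a forebrain and eye regulator. It had 8 transcript rows, the most of any os gene, and 7127 exon bases in all. Thus the starts of Otx2os1 and Six3os1 lay outside the limit of 1000 bases, whereas those of Emx2os and Lhx1os lay well inside it.

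All 4 os genes nested in a homeobox partner shared exon bases with it, and neither of the 2 that enclosed one did. Msx1os, on the strand opposite to Msx1, a homeobox gene of tooth and skull, was a single exon of 2188 bases that began in the last exon of Msx1 and shared 1137 exon bases with it, 443 of them coding. Zfhx2os shared 1775 exon bases with Zfhx2, the most of any pair, and 1726 of these were coding. Zeb2os lay inside Zeb2, a regulator of epithelial-mesenchymal transition, and shared 365 exon bases, none coding. Dlx6, a homeobox gene of forebrain and limb, had an os gene of each kind. Dlx6os2 (1 exon, 1354 bases) lay inside Dlx6 and shared 104 exon bases with it, and Dlx6os1 (51085 bases) enclosed both genes and shared none with Dlx6. With the row listed first for each gene, Dlx6os1 and Dlx6 were divergent without a shared base. Hoxb5os enclosed Hoxb5 and also Hoxb6 within 15874 bases, with no exon base of Hoxb5 in its exons. Hoxb3os overlapped the 3' end of Hoxb3, shared 63 exon bases with it, and began 1762 bases from the start of Hoxb2.

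**Figure D3:**
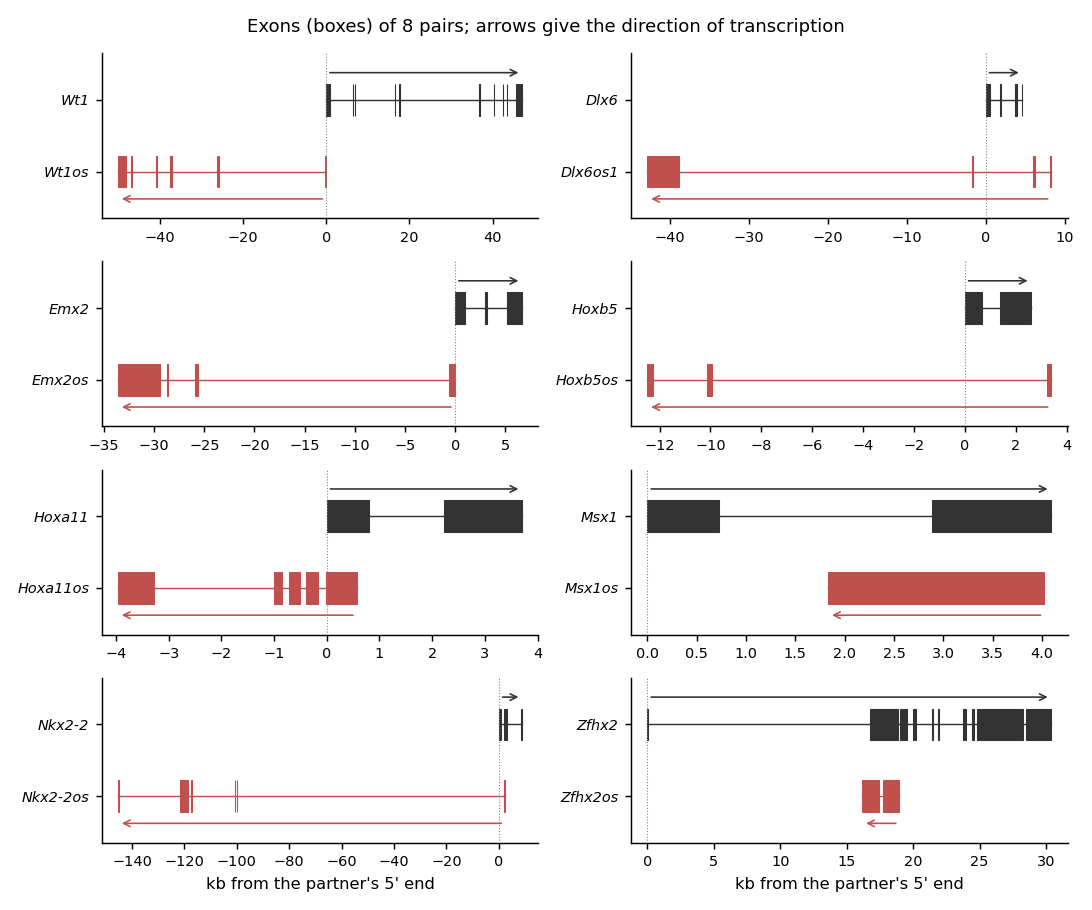
Exons of 8 developmental pairs (boxes, joined over all transcripts of a gene), drawn in kb from the partner's 5' end (dotted line). The partner is in black running to the right and the os gene in red running to the left. Lines give the span of each gene and need not be introns of a single transcript. For Dlx6os1, no transcript had more than 2 exons. Wt1os and Emx2os start beside their partner, Hoxa11os and Nkx2-2os start inside it, Dlx6os1 and Hoxb5os enclose it, and Msx1os and Zfhx2os lie within it on its exons.

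Of the 13 os genes with other developmental transcription factors as partners, the largest number were divergent without a shared base. Wt1os began 19 bases from Wt1 and had 7 exons over 49973 bases, and Hand2os1 began 124 bases from Hand2 with 6 exons over 16599 bases. Foxl2os, with 8 exons, lay 297 bases from Foxl2, a gene of ovary and eyelid development, and Foxd2os 359 bases from Foxd2. Prdm16os lay 707 bases from Prdm16, a brown fat and craniofacial regulator, and Foxo6os 3872 bases from Foxo6. The 5' ends overlapped in Gata6os (by 58 bases, all exonic in both genes and none coding), Tbx3os1 (647 bases), Ptf1aos (1012 bases) and Gata5os (1823 bases). Ptf1a, a pancreas and cerebellum factor, shared 609 exon bases with Ptf1aos, which is 66.5% of the exon bases of Ptf1aos. Tbx3os2 lay beyond the 3' end of Tbx3, 363 bases away. Sox6os, with 572 bases, was the second shortest os gene and lay in the first intron of Sox6, and Sox5os3 lay 463300 bases from Sox5, the farthest of the divergent pairs.

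The 3 signalling partners were each arranged differently. Fzd10os began 419 bases from the 5' end of Fzd10, a Wnt receptor. Igf2os began 7136 bases inside the insulin-like growth factor gene Igf2 and shared 98 exon bases, none coding. Both values depend on the Igf2 transcript: the closest transcript starts were 876 bases apart, and with the longest transcripts no exon base was shared. With the Igf2 row listed first, the pair was divergent without a shared base. Nrg3os (60493 bases) lay inside Nrg3, a ligand of ErbB receptors that spans 1104138 bases, and shared no exon base with it.

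Outside the developmental list, 31 os genes were divergent without a shared base. The closest starts, beside those of Dgkeos and Mkln1os, were those of Appbp2os (46 bases), Fam120aos (52), Med9os (67), Ccdc42os (80), Arl4aos (90), Atad3aos (94) and Etaa1os (95). Etaa1, the partner of the last, acts in the response to replication stress. From 141 to 257 bases followed Saxo1os, Fmr1os, Bloc1s6os, Hmgb4os, Ptgs2os, Stamos, Brip1os, Cep83os, Map2k3os, Lrp8os3, Ino80dos, Rbm46os, Kbtbd8os and Smc2os. Fmr1, the fragile X gene, had a distance of 142 bases, and Brip1, a DNA helicase gene, one of 167 bases. Brip1os ran on for 103084 bases and its exons also touched those of Ints2 and Med13. The widest divergent distances outside the list were in Ttc39aos1 (843 bases), Dio3os (1162), Kif16bos (1501), Dbhos (2804), Chrna1os (4522), Ctcflos (5224), Slc36a1os (6658) and Zfp652os (36313).

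In the other 30 pairs with overlapping 5' ends the shared part ranged from 7 bases in Tmem51os1 to 34865 in Hnf4aos. Up to 1000 bases inside the partner began Phtf1os, Cyp4x1os, Lppos, Zfp335os, Dhrs13os, Kcnmb4os2, Uchl1os, Rbm3os, Man2c1os, Tspan2os, Pla2g10os, Mccc1os, Tomm6os, Ggnbp2os, Zbtb11os1, Slc6a19os and Stk35os1. Farther inside began Sp3os, Kcnd3os, Gad1os, Il1bos, Plekhd1os, Pcsk2os1, Ctrcos, Uckl1os, Slfn5os, Plet1os, Gldnos and Hnf4aos. Over all 43 pairs of this kind, the os gene began in the first intron of the partner's longest transcript in 25 and in its first exon in 5. Exon bases were shared in 32 of the 43, coding bases of the partner among them in 20.

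The partners that held an os gene inside them were long. Their median span, counted per os gene, was 102801 bases, against 16719 for all coding symbols with 1 locus and 32209 for all partners. A partner in this set must be longer than the os gene that it encloses, which by itself favours long genes. In 52 of 59 nested pairs the os gene began in an intron of the partner's longest transcript, the first intron in 11. No exon base was shared in 31 of the 59. This was 24 of 32 where the partner spanned 100000 bases or more and 7 of 27 where it was shorter. The largest partner was Fhit, a fragile site gene of 1611942 bases, with Fhitos in its intron 3.

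Nested os genes without a shared exon base, apart from Sox6os and Nrg3os, were Arhgap27os3, Bcas3os1, Bcas3os2, Dnm3os, Dnmt3aos, Fhad1os1, Fhitos, Frmpd1os, Grip1os1, Grip1os2, Kank4os, Lrp8os2, Lyzl4os, Nell1os, Pard3bos2, Parvaos, Pip5k1bos, Pitpnm2os1, Pitpnm2os2, Plxna4os1, Ppp2r2cos, Prkag2os1, Ptprtos, Rab11fip4os1, Rab11fip4os2, Rap1gapos, Rsf1os1, Slc36a3os and Tmem132cos. Some of these lay near another transcript start of the pair. The closest transcript starts were 51 bases apart for Arhgap27os3, 59 for Lyzl4os and 139 for Lrp8os2. With the row listed first for each gene, Arhgap27os3, Fhitos, Lyzl4os, Pitpnm2os1 and Pitpnm2os2 were divergent without a shared base. Dnmt3aos (2952 bases, 4 exons) lay in intron 3 of Dnmt3a, which encodes a de novo DNA methyltransferase of early embryos. Those with shared exon bases, beside the homeobox pairs, were Acss2os, Arhgap15os, Asb17os, Bach2os, Bcas1os2, Cep112os1, Far1os, Frs3os, Grin1os, Has2os, Hk1os, Itpr3os, Kcnmb4os1, Nphs1os, Pcsk2os2, Peg3os, Rptoros, Slain1os, Sorbs2os, Tbc1d22bos, Tmem150cos, Tnk2os, Ube4bos3 and Unc45bos. Grin1os shared 1269 exon bases with Grin1, an NMDA receptor subunit gene, 1184 of them coding. Peg3os, on the strand opposite to the imprinted gene Peg3, was a single exon of 865 bases that lay wholly within the last exon of Peg3, so 100% of its exon bases were shared.

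Dnm3os differed from the other nested genes in what it carried. It was a single exon of 7928 bases (chr1:162217623-162225550, plus strand) in an intron of Dnm3, a dynamin gene, and had the most exon bases of any os gene. It was also the only os gene whose span held whole miRNA hairpins of the RefSeq miRNA table on its own strand, Mir199a-2 at 191 bases from its start and Mir214 at 5745 bases. The mature miRNAs are shown because they are the part of this transcript with a known product, with the seed (bases 2 to 8) in capitals.
mmu-miR-199a-5p: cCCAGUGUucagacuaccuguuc
mmu-miR-199a-3p: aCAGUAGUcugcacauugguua
mmu-miR-214-5p: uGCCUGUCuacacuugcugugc
mmu-miR-214-3p: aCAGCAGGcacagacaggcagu
The 4 seeds were all different. Another os gene, Tbc1d22bos, held the hairpin of Mir7667 on the other strand.

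The 7 enclosing os genes were Dlx6os1, Hoxb5os, Nudt12os, Speer4cos, St8sia3os, Tnfsf13os and Zfp85os. St8sia3os spanned 119457 bases over St8sia3, a brain sialyltransferase gene of 21786 bases, with no shared exon base. Exons were shared in Nudt12os (323 bases), Speer4cos (335), Zfp85os (140) and Tnfsf13os (62).

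At the 3' ends, exon sharing was the rule. Of 18 os genes that overlapped the partner there, 16 shared exon bases with it, and Ccdc34os and Cdrt4os1 did not. Hectd2os shared the most, 1718 bases, and none of these were coding in Hectd2, a ubiquitin ligase gene. Fam219aos shared 469 bases, also none of them coding, whereas Slc13a2os shared 632 coding bases with a citrate transporter gene and Rbfaos 648 bases, 471 of them coding. The smallest overlaps were 1 exon base in Alkbh3os1 and 15 in Rab10os, and all 54 bases that Abhd11os and Abhd11 had in common were exonic in both. The remaining pairs of this kind were those of Arhgap20os, Atcayos, Atxn7l1os2, Chn1os3, Ppifos, Rsf1os2, Scpep1os and Srrm4os.

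In the 10 convergent pairs without overlap the space between the 3' ends ran from 32 to 50808 bases. It was 32 bases for Arhgap33os, which had 12 exons, the most of any os gene. It was 309 bases for Rab26os, 337 for Epb41l4aos, 363 for Tbx3os2, 1111 for Cd55os and 1898 for Lyrm7os. Oip5os1 lay 8785 bases from Oip5, Fbxl12os 20477 from Fbxl12, Cdr1os 43785 from Cdr1 and Ptgs2os2 50808 from the prostaglandin synthase gene Ptgs2.

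Over all pairs, 80 os genes (44.4%) shared at least 1 exon base with the partner, and 59 of these touched its coding exons. The shared length had a median of 180.5 bases and a range of 1 to 1775. It made up a median of 12.1% of the os gene's exon bases, and 50% or more in 6 genes, namely Peg3os, Zfhx2os, Ptf1aos, Fam219aos, Hectd2os and Msx1os. Of the 127 os genes that overlapped the partner's span, 47 shared no exon base with it. The share with common exon bases was 15 of 35 (42.9%) in developmental pairs and 65 of 145 (44.8%) in the others.

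In length and exon number the os genes lay close to other lncRNA genes. They had a median span of 8696.5 bases (494 in Rab26os to 147599 in Nkx2-2os), 3 exons and 1337 exon bases. The 3144 other lncRNA symbols with 1 locus had medians of 8877 bases, 3 exons and 1273.5 exon bases. Exon numbers of 2, 3 and 4 were found in 36, 58 and 42 os genes. Only 7 (3.89%) had a single exon, against 5.85% of the other lncRNA genes, and these were Dlx6os2, Dnm3os, Msx1os, Peg3os, Phtf1os, Stk35os1 and Zbtb11os1. The shortest after Rab26os and Sox6os were Kif16bos (608 bases), Peg3os (865) and Abhd11os (1036), and the 5 longest were Nkx2-2os, Pax6os1, Otx2os1, St8sia3os and Brip1os, each over 100000 bases.

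Position relative to coding genes, on which the names rest, differed more in count. Counting any coding gene on the other strand, 130 os genes (72.2%) overlapped one, against 945 of 3144 other lncRNA genes (30.1%). A coding start on the other strand lay within 1000 bases in 63 os genes (35.0%) against 675 (21.5%). Set against all coding symbols, lncRNA starts within 1000 bases on the other strand came to 738 (3.51%), and to 675 (3.21%) without an os name. Set against the 713 developmental symbols they came to 53 (7.43%) and 39 (5.47%). The count of 675 equals that of the other lncRNA genes above. These may therefore be counts of lncRNA genes rather than of distinct coding genes. None of these shares was tested.

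The start of the partner was not always the nearest coding start on the other strand. A start of another coding gene on the other strand lay closer in 36 os genes, and within 1000 bases in 7 of them. Most of the 36 still overlapped the partner: 19 lay inside it, 10 overlapped its 3' end and 3 enclosed it. Rsf1os2 began 36 bases from Clns1a, while Rsf1, its partner, began 116725 bases away. Tnfsf13os began 52 bases from Senp3, Zfp85os 89 from Zfp65, Atxn7l1os2 94 from Efcab10, Fam219aos 104 from 1110017D15Rik, Cd55os 219 from Cd55b and Rab26os 313 from Traf7. In these 7 the 5' end thus lay beside that of another gene, while the named partner was enclosed or lay at or beyond the os gene's 3' end. In all, 16 os genes overlapped a further coding gene on the other strand, and 11 of them shared exon bases with it.

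The sequence around the os gene's start differed between arrangements. RefSeq windows of 300 bases (250 before to 50 after the start) that began at the annotated 5' end were found for 142 of the 180 os genes. CpG dinucleotides, which are dense in the promoters of many broadly expressed and developmental genes, had a median of 24 per window in divergent pairs and 14 where 5' ends overlapped. The medians were 5 in nested os genes, 4 where 3' ends overlapped and 10.5 in convergent pairs without overlap, over 34, 38, 44, 16 and 8 windows. In the 2514 windows of other lncRNA genes the median was 6, and in all 32851 windows it was 7.

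The same split followed the distance between starts. With starts within 1000 bases, 40 of 47 windows (85.1%) held 10 or more CpG dinucleotides, and with starts farther apart 23 of 95 (24.2%) did. The share was 33.0% for other lncRNA genes, 43.5% for all windows and 76.7% for the 133 partner windows. Windows of a close pair share bases with the partner's own window, so the 2 are not separate measurements. The richest windows were those of Arl4aos (55), Fam120aos (54) and Dio3os (53), and those of Gata5os, Hectd2os and Ptprtos held 0. The divergent Foxo6os (2), Ctcflos (3), Saxo1os (3) and Ttc39aos1 (3) were low, and the nested Sox6os (26) and Hk1os (21) were high. Hk1os began 39674 bases from the outermost start of Hk1, but the closest transcript starts of the pair were 187 bases apart. By partner, the median was 15 in 22 windows of developmental pairs and 7 in the other 120. These windows cover 22 of 35 and 120 of 145 os genes. Divergent pairs and pairs with overlapping 5' ends were also more frequent with a developmental partner (71.4% against 42.1% of os genes). The part of arrangement in this CpG difference was not tested.

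**Figure D4:**
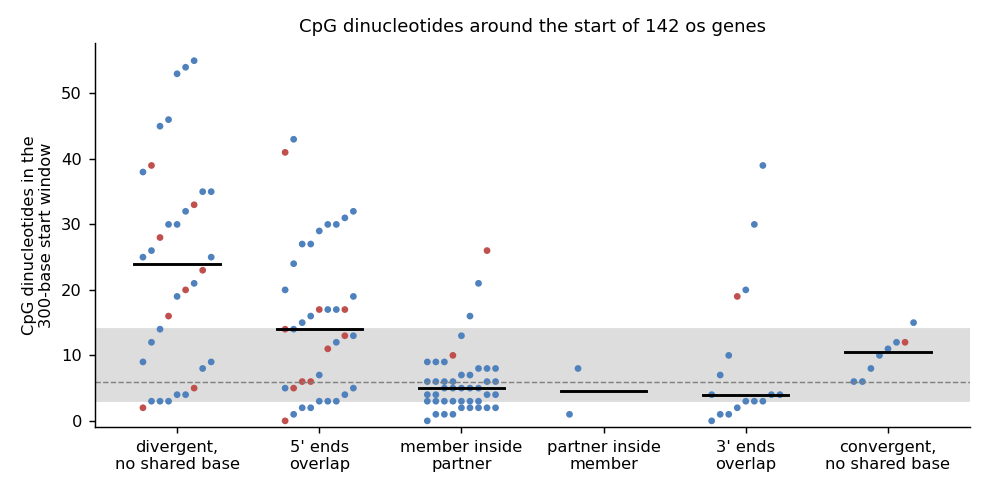
CpG dinucleotides in the 300-base start window of 142 os genes (1 point each, red where the partner is in the developmental list, blue otherwise) by arrangement, with the median as a black line; the grey band and dashed line are the quartiles and median of other lncRNA genes. The medians of divergent pairs (24) and of pairs with overlapping 5' ends (14) lie at or above the top of the band, and those of nested genes (5) and of 3' overlaps (4) inside it.

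The os genes were unevenly spread over the chromosomes. Chromosome 2 held 31 (17.2%), chromosome 11 held 30 (16.7%) and chromosome 4 held 20 (11.1%), so these 3 held 81 of 180 (45.0%). They held 596 of the 3144 other lncRNA symbols (19.0%). These 3 are the chromosomes with the most os genes, and such a choice by itself favours a higher share among os genes. Chromosome 8 had 2, chromosome 15 had 1 (Has2os) and chromosome Y had 0. The difference was not tested.

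**Figure D5:**
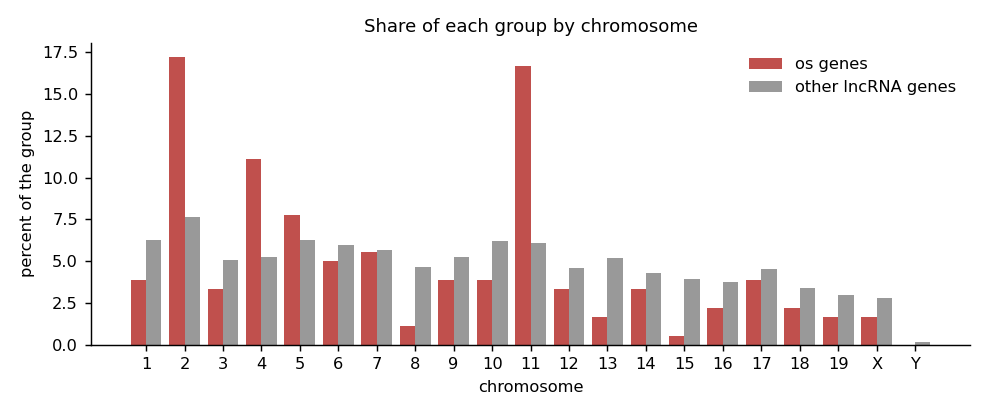
Percent of the 180 os genes (red) and of 3144 other lncRNA genes (grey) on each chromosome. Chromosomes 2, 4 and 11 hold 17.2%, 11.1% and 16.7% of the os genes against 7.63%, 5.25% and 6.08% of the other lncRNA genes.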

How the data were processed

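The deposited table is a 12-column BED annotation of the whole series. The submitters' processing notes name the build mm10 and the tools FastQC, Bowtie2, deepTools and bedtools, without versions or roles, and how the annotation was made is not given in the sources used here. The score in the deposited table was 0 in each of its 50727 rows, and no column holds a value per library, so no test between the groups was made.

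Overlapping rows of 1 symbol (same contig, same strand) were joined into 1 locus with Python 3.11.15, pandas 2.3.3 and numpy 2.4.6. Figures were drawn with matplotlib 3.10.9. Starts, printed counted from 1, are the outermost 5' ends, exons are the union over transcripts, and exon numbers are those of the transcript with most exons. The partner locus nearest to the os gene was used. The geometry routine was tested on simulated data, where 0 of 2000 pairs differed from a base-by-base count.

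All 180 os symbols matched the RefSeq gene table of GRCm38.p6, which gave classes. Promoter windows and miRNAs are RefSeq's, of the same build, and a window was used only where its start equalled the annotated 5' end. Developmental genes were matched to 3 lists of family name patterns. The members and lists were chosen with earlier results of these data known. Genes were named by rule: each os gene at least once, with values for developmental pairs, the longest and shortest, the closest starts and the most shared exon bases. Genes given as examples beyond this were chosen after their values were seen.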

Additional observations from a re-analysis of the deposited data

How the results depend on the processing

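Coordinates have no replicate error, so the results depend on definitions alone. No paired analysis was possible because values per library were not analysed here, and no replicate could be left out for the same reason. Of 180 os genes, 136 were left when no digit was allowed, 180 with any number of digits or with all contigs, and 193 with coding symbols kept. The 127 genes that overlap the partner stayed at 127 with the longest transcript of each gene, where the arrangement was unchanged in all 180, and became 115 with the row listed first in the annotation, where it was unchanged in 166. They became 82 when overlap was required over 50% of the shorter of both genes. The 56 starts within 1000 bases became 65 with the closest transcript starts, 32 with a limit of 300 bases and 83 with one of 5000. Shared exon bases were found in 80 genes, in 75 with the longest transcripts and in 59 for coding bases of the partner. The median of 3 exons did not move. The 35 os genes with a developmental partner became 33 with each partner counted once, 32 with transcription factors alone and 19 with homeobox genes alone. The falls to 82, 32 and 19 follow from narrower definitions.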

Other observations

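Names that end in os are not all lncRNA genes. A further 13 os symbols with a partner had a coding part in the annotation and were left out, among them Brd3os, Cebpzos, Crxos, Pigbos1 and Wdr83os. Another 21 symbols ended in os with no such partner symbol. Most are coding genes with unrelated names, such as Fos, Mos and Icos, while G6bos and Zbtb8os have the form of an os name although no symbol G6b or Zbtb8 stands in the annotation.

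A small number of os genes held or touched other non-coding genes on their own strand. Nkx2-2os enclosed 6430503K07Rik, Pax6os1 enclosed Paupar, and Dio3os shared exon bases with Mir1247. On alternate or fix contigs, 9 os genes had 11 further loci, and in 10 of these the arrangement was that of the assembled chromosome. The other locus, of Speer4cos, had no partner row on its contig.

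Short motifs were counted on both strands in the 142 windows, without regard to position, and no motif contains another. TATAAA was present in 12 windows (8.45%) and in 13.6% of all RefSeq windows. CCAAT was present in 35.2% and 37.4%, and GGGCGG in 35.2% and 35.7%. With starts within 1000 bases, GGGCGG was present in 29 of 47 windows (61.7%), and with starts farther apart in 21 of 95 (22.1%). In the first of these sets the windows were also richer in G+C, with a median of 66.7% against 51.3%. A match is a description of the letters only.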
